A study of Mus musculus with 20 samples.

Results

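Heat shock genes code for molecular chaperones, the proteins that help others fold, keep them from clumping and refold them after stress. The 10 described here are Hspa1a, Hspa1b, Hspa8, Hsp90aa1, Hsp90ab1, Hsph1, Dnajb1, Hspe1, Hspd1 and Hspa5. They were taken by symbol, with no threshold on a value, from the 24862 gene rows of each count table, and all 10 passed the filter on low counts in every comparison. The set was chosen by the levels and fold changes that earlier work on these tables had shown, among them the rise of Hspa1b with added c-Rel. The fold changes and p-values given for them below therefore say where each stands among all genes tested and are a description.

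RNA-seq was done on mouse C57BL/6 TH17 cells, the CD4 T cells that make interleukin-17, in 12 libraries of 6 groups with 2 replicates each. In the central nervous system (CNS) group, GFP-positive TH17 cells had infiltrated the CNS, and in the ileum group GFP-positive TH17 cells came from the ileum, in both cases sorted as 50000 cells for a low-input SMART-Seq v4 library. The Ad-c-Rel group and its Ad-control group were naive CD4 T cells cultured under TH17(β) conditions, with TGF-β1 at 2 ng/ml and IL-6 at 20 ng/ml. Both names carry the prefix Ad, which the other groups lack. The names alone do not say how c-Rel was added or what the Ad-control cells received. The miR-21-/- group and the miR-21 control group were naive CD4 T cells of knockout or control mice cultured under TH17(23) conditions, with 20 ng/ml each of IL-1β, IL-6 and IL-23, and made into stranded total RNA libraries. All cultures shared anti-CD3ε and anti-CD28 stimulation and antibodies that block IL-4 and IFN-γ. The comparisons ask how CNS and ileum TH17 cells differ, what added c-Rel, an NF-κB subunit, changes, and what loss of the microRNA miR-21 changes. The sources used here do not give the GFP reporter, the disease model behind the CNS cells, the kit of the Ad-c-Rel and Ad-control libraries or the source animals of the replicates. The p-values rest on the spread within groups, and that spread may be technical only.

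As background, most heat shock genes have a basal level in every cell and are raised by heat shock factor 1 (HSF1), which binds inverted repeats of the unit nGAAn, the heat shock element. Hspa1a and Hspa1b code for the stress-inducible cytosolic HSP70, Hspa8 for the constitutive cytosolic HSP70, Hsp90aa1 and Hsp90ab1 for the inducible and the constitutive cytosolic HSP90. Hspa5 codes for BiP, the HSP70 of the endoplasmic reticulum (ER), which answers mainly to the unfolded protein response through the ER stress element. In T cells, activation raises protein synthesis and with it the need for chaperones.

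The upstream sequences of Hspa1a, Hspa1b and Hspa5 and a short site of Hspe1 are shown because these genes differ in the element that the stress pathways use. They are from the RefSeq promoter table of build GRCm38.p6, which held 7 of the 10 genes, and are written 5′ to 3′ on the strand of the gene. The first 3 end at the base before the start of transcription. Capitals mark the heat shock element in Hspa1a, Hspa1b and Hspe1 and the ER stress element in Hspa5. The positions are chr17:34972157-34972406 on the minus strand for Hspa1a, chr17:34959239-34959488 on the minus strand for Hspa1b, chr2:34771840-34772089 on the plus strand for Hspa5 and chr1:55088059-55088076 on the plus strand for the Hspe1 site.
Hspa1a: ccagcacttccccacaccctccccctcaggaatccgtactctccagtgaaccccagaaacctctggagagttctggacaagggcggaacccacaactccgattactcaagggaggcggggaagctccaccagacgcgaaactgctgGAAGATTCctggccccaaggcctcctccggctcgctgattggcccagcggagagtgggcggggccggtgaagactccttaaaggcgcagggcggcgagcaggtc
Hspa1b: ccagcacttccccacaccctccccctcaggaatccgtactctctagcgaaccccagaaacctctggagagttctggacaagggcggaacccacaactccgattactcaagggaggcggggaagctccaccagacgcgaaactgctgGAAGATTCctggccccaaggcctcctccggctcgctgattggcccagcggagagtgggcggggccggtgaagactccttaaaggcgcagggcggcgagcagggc
Hspa5: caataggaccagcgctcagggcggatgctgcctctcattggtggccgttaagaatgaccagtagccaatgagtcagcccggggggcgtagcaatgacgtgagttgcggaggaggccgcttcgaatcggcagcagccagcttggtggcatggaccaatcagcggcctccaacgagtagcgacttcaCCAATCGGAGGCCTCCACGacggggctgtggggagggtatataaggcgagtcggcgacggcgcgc
Hspe1 site: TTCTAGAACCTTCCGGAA

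Hspa1a and Hspa1b lie 10120 bases apart on chromosome 17, at 34969359-34972156 and 34956429-34959238, and their 250 upstream bases differ at 3 positions, which makes them 98.8% identical. Counted from the 5′ end of the stretch, with the base of Hspa1a written before that of Hspa1b, these are C44T, T47C and T249G. The heat shock element starts 104 bases before the start of transcription in both. The letters GAANNTTC or TTCNNGAA, searched on both strands over the 250 bases before each start, occurred in 12.8% of all 32851 promoters of the table and in 5 of the 7 members (Hspa1a, Hspa1b, Hsph1, Hspe1 and Hspd1). A run with one more unit, GAANNTTCNNGAA or TTCNNGAANNTTC, occurred in 0.466% of promoters and in 2 members, Hspe1 and Hspd1. These 2 genes lie head to head on chromosome 1 and share 96 bases at their starts in that annotation. The same run of units lies upstream of the Hspe1 start and of 1 of the 2 Hspd1 starts held. The other Hspd1 start had no match, and a member was counted if any of its starts had one. The ER stress element, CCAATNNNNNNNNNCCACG, occurred in 0.113% of promoters and in 1 member, Hspa5, where it starts 65 bases before the start of transcription. The NF-κB consensus occurred in 3.9% of promoters and in 0 of the 7 members. A match or its absence describes these letters in this window and says nothing of binding.

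Gene counts summed to 15421743 to 19930807 in the CNS, ileum, Ad-c-Rel and Ad-control libraries and to 32766097 to 36711252 in the 4 miR-21 libraries. In the knockout check, Mir21a, the precursor gene, had 0 and 0 counts in miR-21-/- libraries, against 25 and 20 in miR-21 control libraries. Levels are given as CPM, a gene's counts scaled to a library total of 1000000 gene counts. Rel had 57.5 and 61.9 CPM with Ad-c-Rel, against 10.8 and 7.02 CPM with Ad-control. In CNS and ileum, replicate 2 was the deeper library and yet had fewer genes with a count (11545 against 14224 in CNS, 10771 against 13927 in ileum). The sorted samples also held RNA of marker genes of other cell types. The 22 myeloid and microglial markers summed to 30955 and 32069 CPM in CNS, against 3339 and 3648 CPM in ileum, and the 13 B and plasma cell markers to 28.6 and 21.9 CPM in CNS, against 3913 and 3828 CPM in ileum. In the cultures these lists summed to at most 278 and 122 CPM. The 11 T cell identity genes found in the tables summed to 5365 and 5490 CPM in CNS, against 6322 and 6188 CPM in ileum, and none was at 0.

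Mean levels across the 6 groups were highest in ileum for 7 of the 10 genes, by wide margins for the inducible HSP70 pair and for Hspa5. In Hspa8 the ileum libraries overlapped those of miR-21 control (up to 3362 CPM, against 3343 CPM in ileum replicate 2). In Dnajb1 they overlapped those of Ad-c-Rel (274.0 and 258.1 CPM, against 253.0 CPM in ileum replicate 1). CPM are not divided by gene length, so they order groups for one gene and do not compare genes. Hspa1a averaged 241.0 ± 31.3 CPM in ileum (SD, n = 2) and stood in the order ileum, Ad-c-Rel, CNS, miR-21-/-, Ad-control, miR-21 control, a range of 132.7-fold. Only miR-21-/- and Ad-control, neighbours in that order, overlapped between libraries. Hspa1b averaged 110.3 ± 8.73 CPM in ileum and 15.7 ± 0.496 CPM with Ad-c-Rel, and all other groups averaged between 3.09 and 6.13 CPM. Hspa5 averaged 5844 CPM in ileum, 2059 CPM in CNS and 862 CPM with Ad-c-Rel, and the remaining 3 groups, between 563 and 596 CPM, overlapped. Hsp90aa1 separated all 6 groups without overlap, in the order ileum, miR-21 control, CNS, miR-21-/-, Ad-c-Rel, Ad-control. Hsp90ab1 was highest in the miR-21 control (3293 ± 61.1 CPM) and Hspd1 likewise (279 ± 45.7 CPM), while Hspe1 was highest in miR-21-/- (177 ± 13.1 CPM). All of these peaks are in the miR-21 tables, where reads of several alignments came to 0, against 2.25% to 3.52% elsewhere. The part of that difference in these levels was not tested. Hspa8 spanned 1.99-fold from Ad-control to ileum and Hspd1 1.80-fold, the narrowest ranges of the 10. Library kit, culture and source differ between the 3 pairs of groups, so no test was made across pairs. With CPM scaled by TMM over all 12 libraries the highest group was the same for all 10 genes, and the whole order for 5 of them (Hspa1a, Hsp90aa1, Hsp90ab1, Hsph1 and Hspe1).

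**Figure D1:**
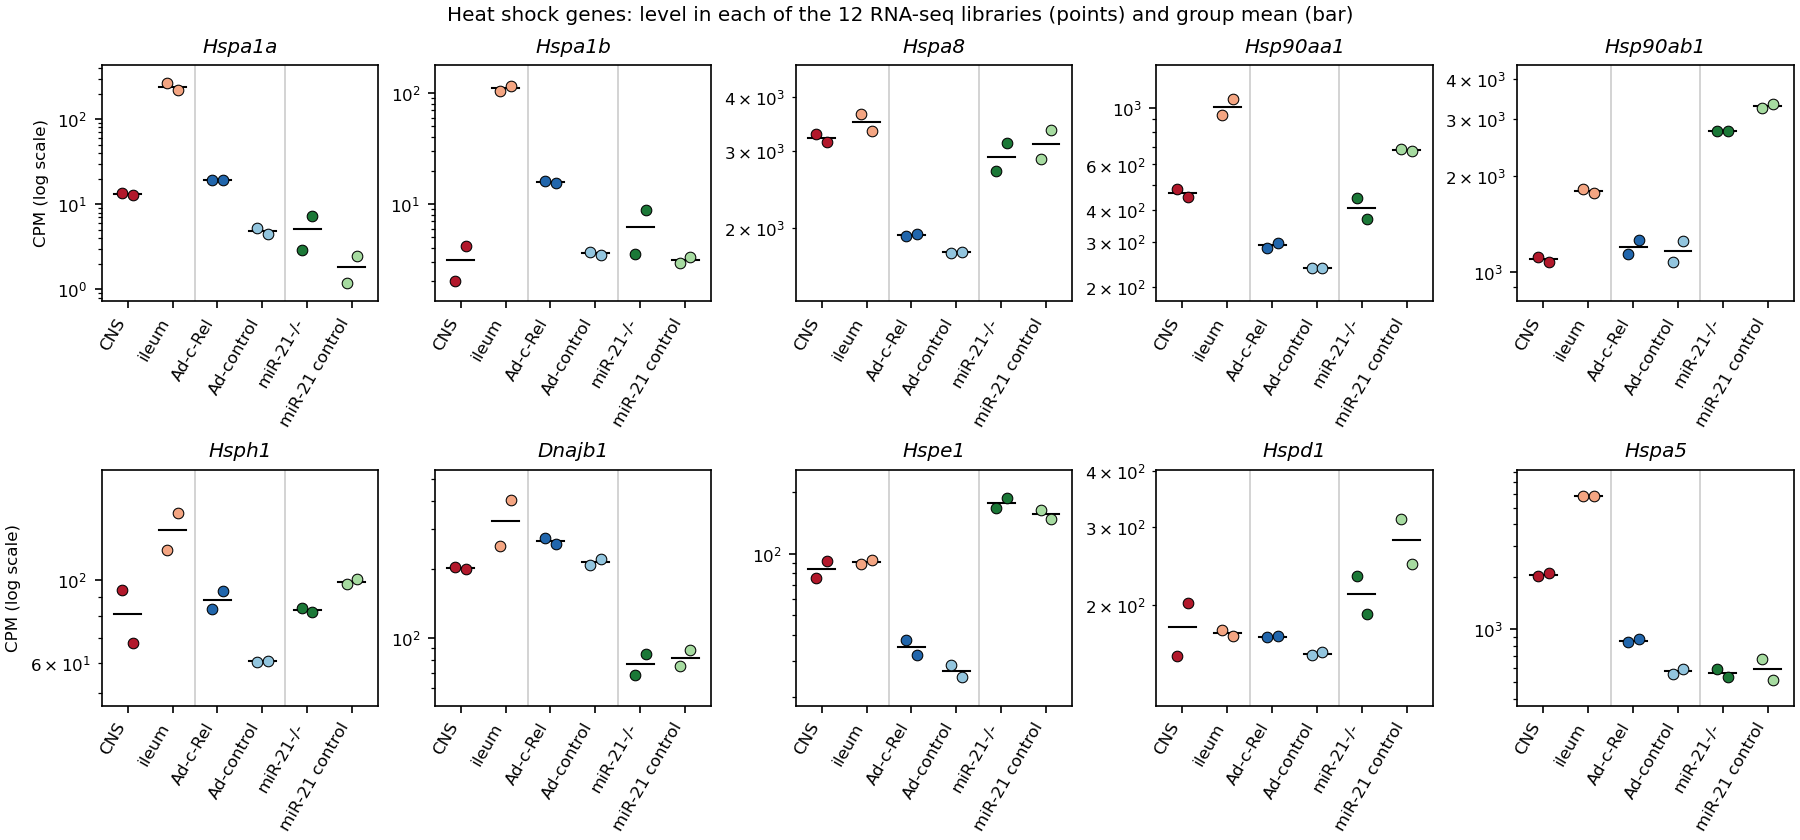
Level of each heat shock gene in CPM (vertical log axis) in the 12 libraries. Points are libraries, bars are means of the 2 replicates, and grey lines part the 3 comparisons. The ileum points of Hspa1a (219 and 263 CPM) and Hspa5 (5833 and 5855 CPM) lie above those of all other groups.

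In CNS TH17 cells, set against ileum TH17 cells, all 10 fold changes were below 0 and 5 genes passed an adjusted p of 0.05 (edgeR, 4 libraries, Benjamini-Hochberg over 12038 genes). These were Hspa1a, Hspa1b, Hspa5, Hsp90aa1 and Hsp90ab1, all lower, and 0 were higher. Of all genes tested, 5.66% were called lower and 4.0% higher. DESeq2 called 8 members lower, all but Hspe1 and Hspd1, against 15.1% of all genes lower and 14.4% higher. The members' median log2 fold change was -0.93, beside 0.08 over all genes tested. Fold changes here and below come from fits with TMM scaling, so they can differ from ratios of the CPM printed. The TMM factors were 1.08 and 1.06 in CNS, against 0.918 and 0.948 in ileum. Mean CPM of Hspd1 was 177.8 in CNS, against 172.9 in ileum, so its fold change below 0 depends on the scaling. By CPM, 8 members had both CNS libraries below both ileum libraries, and 0 had both above. Of the 9647 genes averaging at least 5 CPM in these libraries, 23.6% were below and 40.3% above.

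The inducible HSP70 pair differed most. Hspa1a had 13.5 and 13.0 CPM in CNS, against 263.1 and 218.8 CPM in ileum, a log2 fold change of -4.39 (SE 0.235, adjusted p = 0.000853) or 20.9-fold lower. Hspa1b had 2.02 and 4.16 CPM in CNS, from 34 and 80 counts, against 104.1 and 116.4 CPM in ileum, from 1692 and 1984 counts. Its log2 fold change was -5.34 (SE 0.476, adjusted p = 0.00348). In both genes every CNS library was far under every ileum library. The constitutive Hspa8 was 3286 and 3144 CPM in CNS, against 3653 and 3343 CPM in ileum, at a log2 fold change of -0.32 (SE 0.0996, adjusted p = 0.121). Its groups did not overlap, but lay close together.

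The partners of HSP70 followed with wider spread. Hsph1, an HSP110 that exchanges the nucleotide of HSP70, had 94.3 and 68.0 CPM in CNS, against 120.8 and 151.2 CPM in ileum, a log2 fold change of -0.95 (SE 0.251, adjusted p = 0.0833). Dnajb1, the J-domain protein that hands clients to HSP70, had 204.6 and 201.2 CPM in CNS, against 253.0 and 403.5 CPM in ileum. The log2 fold change of Dnajb1 was -0.89 (SE 0.239, adjusted p = 0.0856), and -1.17 (adjusted p = 0.0204) without ileum replicate 1. For both genes the ileum libraries were the higher ones, and the 2 libraries of a group stood far apart in Hsph1 and in ileum Dnajb1.

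The HSP90 genes and BiP were lower in CNS. Hsp90aa1 had 480.8 and 447.7 CPM in CNS, against 931.9 and 1084 CPM in ileum (log2 change of -1.32, SE 0.127, adjusted p = 0.00448). Hsp90ab1 had 1117 and 1077 CPM in CNS, against 1815 and 1767 CPM in ileum (log2 change of -0.91, SE 0.103, adjusted p = 0.00755). Hspa5 had 2024 and 2095 CPM in CNS, against 5833 and 5855 CPM in ileum, a ratio of mean CPM of 0.352. Its log2 fold change in the fit with TMM scaling was -1.70 (SE 0.0874, adjusted p = 0.000817), or 3.26-fold lower. The replicates of these 3 genes agreed closely and the groups were well apart.

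The mitochondrial chaperonin genes showed no such distance. Hspe1, the HSP10 lid, had 75.8 and 91.5 CPM in CNS, against 89.3 and 93.1 CPM in ileum (log2 change of -0.32, SE 0.234, adjusted p = 0.495). Hspd1, the HSP60 barrel, had 153.5 and 202.2 CPM in CNS, against 175.8 and 170.0 CPM in ileum (log2 change of -0.16, SE 0.21, adjusted p = 0.735). In both genes the groups overlapped.

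These are whole sorted samples, in which fewer TH17 cells and less RNA per TH17 cell cannot be told apart. The myeloid list was higher in CNS for 22 of 22 genes (Lyz2 5672 and 5640 CPM in CNS, against 581.9 and 707.6 CPM in ileum). The B and plasma cell list was lower for 6 of 12 tested, with Jchain at 0.892 and 1.04 CPM in CNS, against 3326 and 3270 CPM in ileum, and Ms4a1 at 0 in both CNS libraries. The part of these cells in the heat shock values was not tested. With libraries scaled to the T cell identity genes, which moved the median of all genes to 0.48, the same 5 members were called lower, at -3.98 for Hspa1a, -4.95 for Hspa1b, -1.30 for Hspa5, -0.91 for Hsp90aa1 and -0.50 for Hsp90ab1 (adjusted p = 0.0363 for the last). Under that scaling Hspa8, Hspe1 and Hspd1 turned to above 0, at 0.08, 0.08 and 0.24, and were not called. The T cell identity genes themselves did not move alike. In the main fit their log2 fold changes ran from -1.04 (Cd28) to 0.59 (Cd3d), and 3 of 11 were called lower in CNS. Hsp90ab1, at -0.91 in that fit, lay within this range.

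Other chaperone genes were read from 10 lists of 118 genes, of which 109 were tested in CNS against ileum. In all, 16 were lower and 2 higher, with a median log2 fold change of -0.29. DESeq2 called 37 lower and 8 higher, and the T cell scaling 8 lower and 5 higher. Over all genes, DESeq2 called 15.1% lower and 14.4% higher, and the T cell scaling called 408 of 12038 lower and 885 higher. Of 25 other ER chaperones and unfolded protein response genes, 7 fell in CNS and 0 rose (median -0.64). DESeq2 called 12 lower and 2 higher in this list, and the T cell scaling 4 lower and 2 higher. Ern1, the ER stress sensor IRE1α, had 15.6 and 18.7 CPM in CNS, against 103 and 136 CPM in ileum (log2 change of -2.99, SE 0.295, adjusted p = 0.00475). Xbp1, the transcription factor that IRE1α activates by splicing, fell by 1.08 on the log2 scale (adjusted p = 0.0123) and Hsp90b1, the ER form of HSP90, fell by 0.93 (adjusted p = 0.00941). Xbp1 is also the factor that plasma cells need to secrete antibody, and the plasma cell marker Jchain was far higher in the ileum libraries, as given above. The part of plasma cells in these values was not tested.

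Of 15 other J-domain genes, 3 fell and 0 rose (median -0.75), and DESeq2 called 9 lower. Dnajb2 had 9.15 and 5.25 CPM in CNS, against 77.8 and 85.2 CPM in ileum (log2 change of -3.70, adjusted p = 0.00676), Dnajb6 fell by 1.47 (adjusted p = 0.00453) and Dnaja1, a major partner of Hspa8, fell by 1.10 (adjusted p = 0.0108). Of 10 HSP70 partners tested, Hspa4 (log2 fold change -1.02, adjusted p = 0.0216) and Hspa14 (-1.25, adjusted p = 0.022) were lower, and DESeq2 called 4 lower. Both calls ended without CNS replicate 2 or ileum replicate 2 and under the T cell scaling (adjusted p = 0.0539 to 0.0954). Of 18 HSP90 co-chaperones, 1 rose and 1 fell, while DESeq2 called 2 higher and 4 lower and the T cell scaling 2 higher and 0 lower. Fkbp5, a glucocorticoid-responsive immunophilin, had 256 and 216 CPM in CNS, against 71.1 and 44.2 CPM in ileum (log2 change of 1.82, SE 0.299, adjusted p = 0.022), and Unc45a fell by 1.50 (adjusted p = 0.0262). The call of Unc45a ended under the T cell scaling (adjusted p = 0.0646).

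Of 17 other stress-inducible HSF1 targets, 3 fell and 1 rose (median -0.11), and DESeq2 called 6 lower and 2 higher. Besides Dnaja1, the polyubiquitin gene Ubb was among those that fell (log2 fold change -1.19, adjusted p = 0.015). Ier5, a cofactor of HSF1, was the higher one (0.77, adjusted p = 0.0407) and is named after its value was seen. Its call ended without CNS replicate 1, CNS replicate 2 or ileum replicate 2 (adjusted p = 0.0725 to 0.144). Of 6 prefoldin subunits, 1 was lower, Vbp1 (-1.06, adjusted p = 0.0231), a call that ended without CNS replicate 1, CNS replicate 2 or ileum replicate 2 and under the T cell scaling (adjusted p = 0.0538 to 0.0946). None of the 8 chaperonin TRiC subunits, 14 other mitochondrial chaperones and proteases, 5 small heat shock proteins and 3 heat shock factors and regulators tested was called by edgeR. At an unadjusted p under 0.05 these lists held 3, 1, 1 and 1 genes, and DESeq2 called 3 TRiC subunits lower and 1 gene of each of the other lists higher. Their genes of smallest p were Cct5 (-0.66, adjusted p = 0.0606), Hscb (1.87, adjusted p = 0.182), Hspb7 (adjusted p = 0.187, and 0 counts in ileum) and Hsbp1 (0.65, adjusted p = 0.186).

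**Figure D2:**
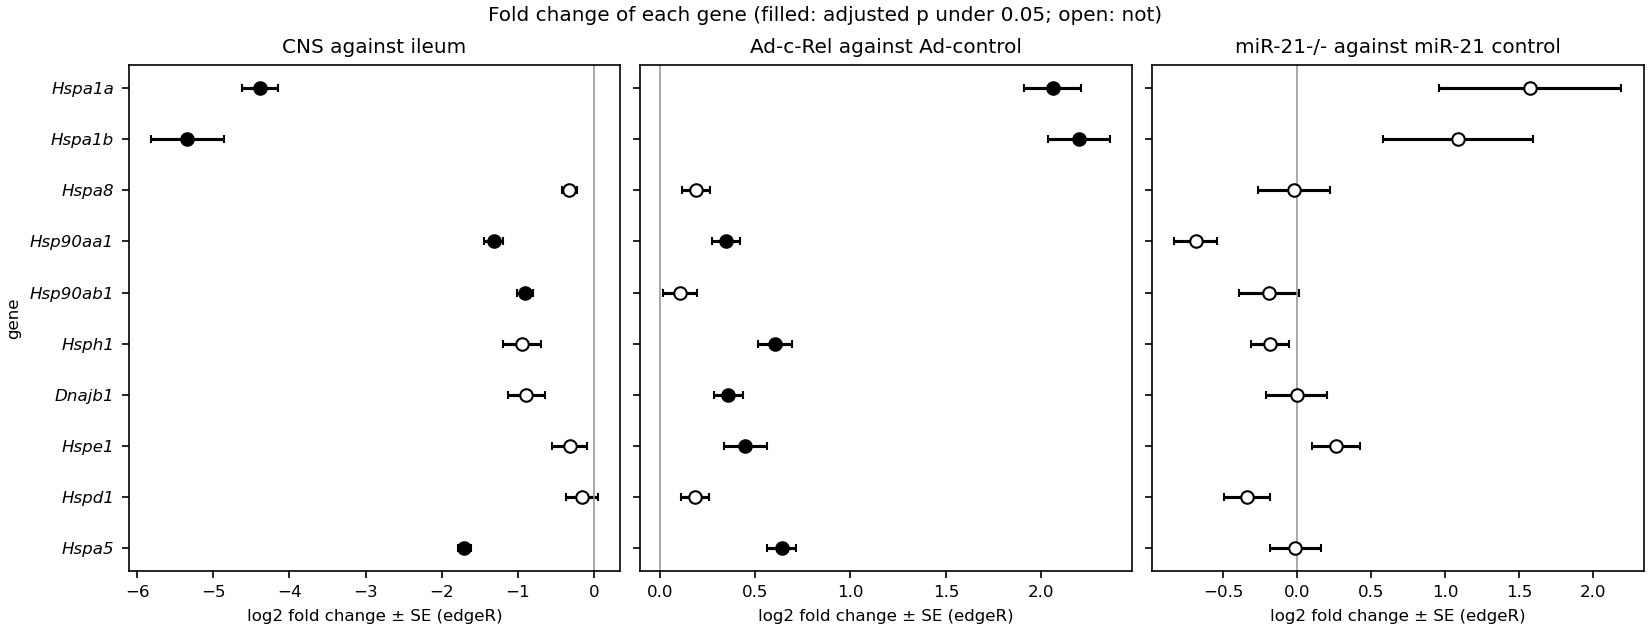
Log2 fold change (horizontal axis) with standard error of each heat shock gene in the 3 comparisons, from edgeR on all genes. Filled points have an adjusted p under 0.05. All 10 lie below 0 for CNS against ileum and above 0 for Ad-c-Rel against Ad-control. By mean CPM, without TMM scaling, Hspd1 was 1.03 times as high in CNS as in ileum. The miR-21-/- panel has no filled point, and its horizontal scale differs from those of the other panels.

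With Ad-c-Rel, set against Ad-control, all 10 fold changes were above 0 and 7 genes passed the adjusted p of 0.05. These were Hspa1b, Hspa1a, Hspa5, Hsph1, Hspe1, Dnajb1 and Hsp90aa1, all higher, and 0 were lower. Of 11711 genes tested, 8.16% were called higher and 6.12% lower. DESeq2 called the same number of members, 7 higher and 0 lower, against 6.20% of all genes higher and 4.17% lower. The members' median log2 fold change was 0.40, beside -0.01 over all genes. By CPM, 9 members had both Ad-c-Rel libraries above both Ad-control libraries, and 0 had both below. Of the 9306 genes averaging at least 5 CPM in these libraries, 20.7% were above and 40.5% below.

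The inducible HSP70 pair again moved most. Hspa1b had 16.1 and 15.4 CPM with Ad-c-Rel, against 3.70 and 3.46 CPM with Ad-control, a log2 fold change of 2.20 (SE 0.162, adjusted p = 3.49e-07) or 4.58-fold higher. Hspa1a had 19.1 and 19.4 CPM with Ad-c-Rel, against 5.25 and 4.42 CPM with Ad-control (log2 fold change 2.06, SE 0.149, adjusted p = 2.99e-07), or 4.17-fold higher. The replicates were close, at 283 and 253 Hspa1b counts with Ad-c-Rel and 57 and 69 with Ad-control. Hspa8 had 1911 and 1930 CPM with Ad-c-Rel, against 1751 and 1759 CPM with Ad-control (log2 fold change 0.19, SE 0.0726, adjusted p = 0.0984). Its groups did not overlap, at a small distance.

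Among the partners, Hsph1 had 83.6 and 93.7 CPM with Ad-c-Rel, against 60.4 and 60.9 CPM with Ad-control (log2 fold change 0.61, SE 0.0882, adjusted p = 0.000215). Dnajb1 had 274.0 and 258.1 CPM with Ad-c-Rel, against 209.3 and 222.5 CPM with Ad-control (log2 fold change 0.36, SE 0.0763, adjusted p = 0.00524). Both had every Ad-c-Rel library above every Ad-control library. Hsp90aa1, the inducible HSP90, had 283.2 and 297.4 CPM with Ad-c-Rel, against 237.4 and 236.9 CPM with Ad-control (log2 fold change 0.35, SE 0.0734, adjusted p = 0.00475), a call that ended without Ad-c-Rel replicate 2 (adjusted p = 0.0849). Hsp90ab1, the constitutive form, had 1138 and 1261 CPM with Ad-c-Rel, against 1073 and 1248 CPM with Ad-control (log2 fold change 0.11, SE 0.0898, adjusted p = 0.475). It was the member whose groups overlapped.

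Hspa5 had 848.1 and 875.9 CPM with Ad-c-Rel, against 558.3 and 592.9 CPM with Ad-control. In the fit it was 1.56-fold higher (log2 fold change 0.64, SE 0.0757, adjusted p = 2.75e-05). Hspe1 had 38.0 and 32.1 CPM with Ad-c-Rel, against 28.7 and 25.0 CPM with Ad-control (log2 fold change 0.45, SE 0.112, adjusted p = 0.0139). Its call ended without Ad-c-Rel replicate 1 (adjusted p = 0.153) or Ad-control replicate 2 (adjusted p = 0.1). Hspd1 had 169.5 and 169.8 CPM with Ad-c-Rel, against 154.2 and 156.3 CPM with Ad-control (log2 fold change 0.19, SE 0.0742, adjusted p = 0.11). The groups of these 3 genes did not overlap.

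Of the 110 other chaperone genes tested with Ad-c-Rel, 17 were higher and 2 lower, with a median log2 fold change of 0.09. Over all genes tested, 8.16% were higher and 6.12% lower, and a single call in a small list is to be read beside these shares. The number higher was 6 without Ad-c-Rel replicate 2 and 8 without Ad-control replicate 1, and the number lower was 0 without Ad-c-Rel replicate 2 or Ad-control replicate 2. Of 25 other ER chaperones and unfolded protein response genes, 12 rose and 0 fell (median 0.25), so this list held 12 of the 17. That number was 4 without Ad-c-Rel replicate 2 and 5 without Ad-control replicate 1. Edem1, which takes misfolded glycoproteins out of the ER folding cycle, had 819 and 901 CPM with Ad-c-Rel, against 560 and 632 CPM with Ad-control (log2 fold change 0.59, SE 0.0855, adjusted p = 0.000217). Pdia6, a protein disulfide isomerase, rose by 0.49 (adjusted p = 0.000746) and Creld2, an ER-stress-inducible gene, by 0.50 (adjusted p = 0.00283).

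Of 5 heat shock factors and regulators, 1 rose. Hsf2, a partner of HSF1 at heat shock elements, had 84.7 and 96.9 CPM with Ad-c-Rel, against 49.9 and 53.6 CPM with Ad-control (log2 fold change 0.87, SE 0.0944, adjusted p = 1.21e-05). Of 16 other HSF1 targets, 3 rose and 0 fell (median 0.11), and 1 was higher without Ad-c-Rel replicate 1, Ad-c-Rel replicate 2 or Ad-control replicate 1. Ier5 had 53.1 and 44.9 CPM with Ad-c-Rel, against 38.1 and 30.0 CPM with Ad-control (log2 fold change 0.59, adjusted p = 0.00296). Hspb1, the small heat shock protein HSP25 of mice, which is on this list and is 1 of 3 tested small heat shock proteins, had 2.05 and 1.4 CPM with Ad-c-Rel, against 0.843 and 0.602 CPM with Ad-control (adjusted p = 0.0408). That call ended when any of the 4 libraries was left out (adjusted p = 0.0522 to 0.318).

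Of 14 other mitochondrial genes, Hspa9, the mitochondrial HSP70, was the 1 that rose (log2 fold change 0.39, adjusted p = 0.00261), and its call ended without Ad-c-Rel replicate 2 (adjusted p = 0.0559). Of 11 HSP70 partners, 1 fell, Hspa12a (log2 fold change -1.76, adjusted p = 0.0219), at 0.740 and 0.304 CPM with Ad-c-Rel, against 1.36 and 2.31 CPM with Ad-control. Of 15 J-domain genes, 1 fell, Dnajc9 (-0.34, adjusted p = 0.0136). Both calls ended without Ad-c-Rel replicate 2 or Ad-control replicate 2 (adjusted p = 0.0668 to 0.229). Of 18 HSP90 co-chaperones, 8 TRiC subunits and 6 prefoldin subunits, edgeR and DESeq2 called 0, and 6, 3 and 1 genes had an unadjusted p under 0.05. Their genes of smallest p were Stip1 (0.21, adjusted p = 0.0779), Cct8 (0.19, adjusted p = 0.104) and Vbp1 (-0.19, adjusted p = 0.112). Without Ad-control replicate 2, 3 co-chaperones were called higher, with Stip1 at an adjusted p of 0.0389 (0.0389 to 0.41 over the 4 libraries left out).

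**Figure D3:**
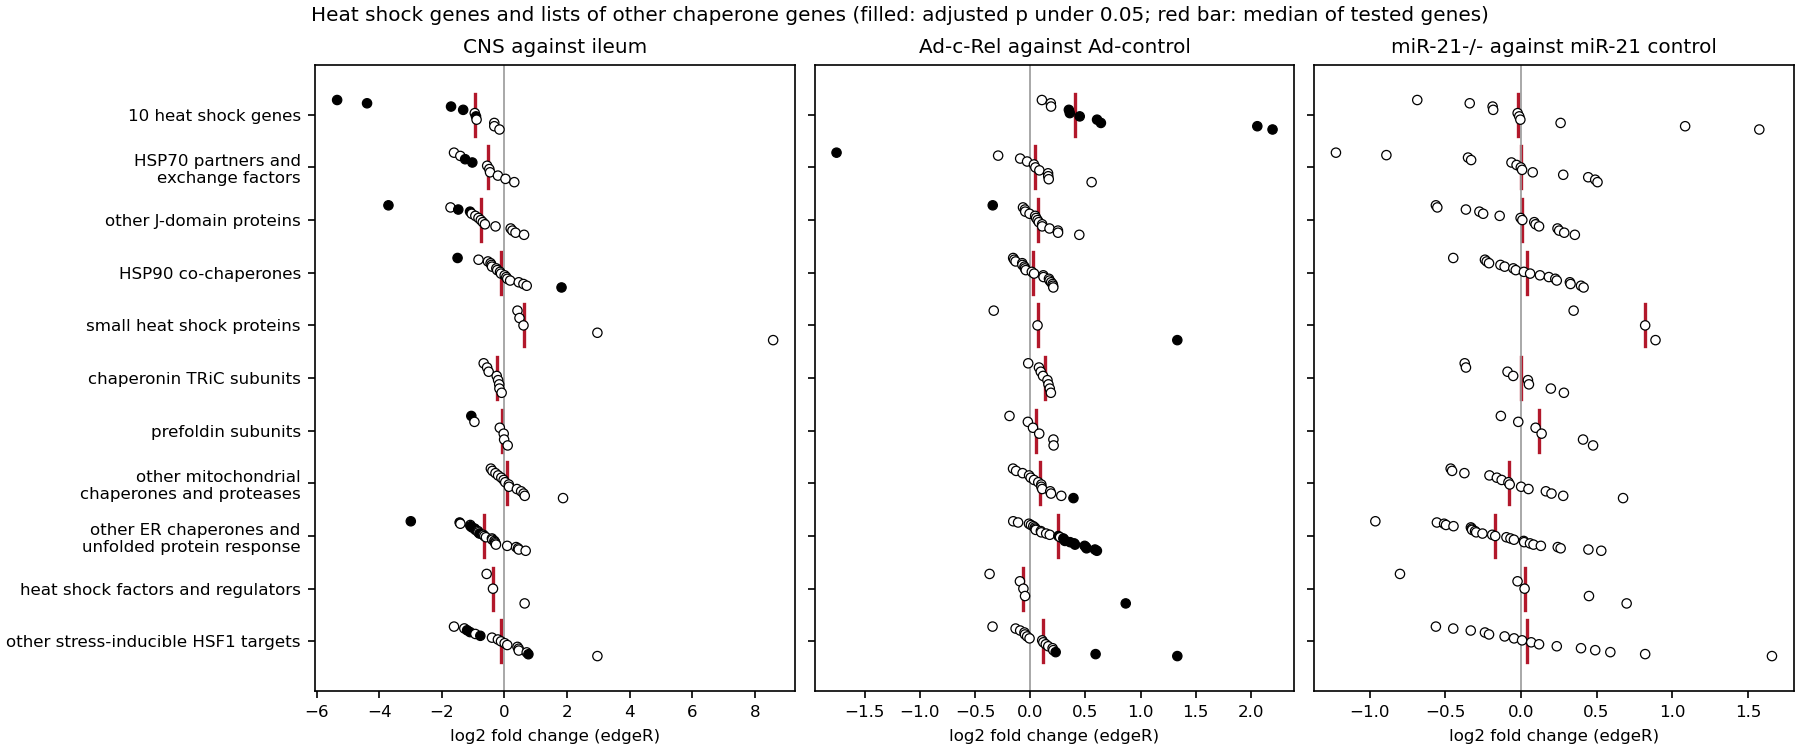
Log2 fold change (horizontal axis) of the 10 heat shock genes and of each tested gene in 10 lists of other chaperone genes, in the 3 comparisons. Filled points have an adjusted p under 0.05, and the red bar is the median of the tested genes. Horizontal scales differ between panels, and the point farthest to the right in CNS is Hspb7, whose fitted value is no bound since ileum had 0 counts. The ER list has 12 filled points above 0 with Ad-c-Rel and 7 below 0 in CNS.

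In miR-21-/- cells, set against miR-21 control cells, 3 of the 10 fold changes were above 0, and edgeR called 0 members, of which 2 (Hspa1a and Hsp90aa1) had an unadjusted p under 0.05. It called 0% of 13428 genes higher and 0% lower, the smallest adjusted p being 0.0625, while 2821 genes had an unadjusted p under 0.05. DESeq2 called 1 member lower, Hsp90aa1, and 0 higher, against 3.83% of all genes lower and 2.68% higher. The members' median log2 fold change was -0.02, the same as over all genes. By CPM, 3 members (Hspa1a, Hspa1b and Hspe1) had both miR-21-/- libraries above both miR-21 control libraries and 4 (Hsp90aa1, Hsp90ab1, Hsph1 and Hspd1) had both below. Of the 9867 genes averaging at least 5 CPM in these libraries, 26.5% were above and 29.1% below. Hspa1a and Hspa1b averaged under 5 CPM here and are not among those 9867.

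Hspa1a had 2.90 and 7.23 CPM in miR-21-/- cells, against 1.18 and 2.45 CPM in miR-21 control cells, from 101 and 237 counts against 43 and 90. Hspa1b had 3.53 and 8.73 CPM in miR-21-/- cells, against 2.91 and 3.30 CPM in miR-21 control cells. For both genes miR-21-/- replicate 2 was the high library, more than 2-fold above replicate 1. The miR-21 control replicate 2 was also above its replicate 1 in both genes. Libraries of the same number departed from their group means with a correlation of 0.715 in this comparison. With the replicate number as a block, a pairing that the labels do not state, both genes were called higher, as given at the end. The log2 fold changes were 1.58 for Hspa1a (SE 0.615, adjusted p = 0.227) and 1.09 for Hspa1b (SE 0.508, adjusted p = 0.283). Without miR-21-/- replicate 1 they were 2.15 and 1.66, and without miR-21-/- replicate 2 they were 0.66 and 0.18.

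Hsp90aa1 had 444.0 and 368.2 CPM in miR-21-/- cells, against 687.8 and 674.9 CPM in miR-21 control cells. The groups lay well apart, at a log2 fold change of -0.69 (SE 0.145, adjusted p = 0.129). DESeq2 called Hsp90aa1 lower (adjusted p = 0.00368). Over the 4 libraries left out its log2 fold change in edgeR was -0.72 to -0.62. Hsp90ab1 had 2750 and 2760 CPM in miR-21-/- cells, against 3250 and 3336 CPM in miR-21 control cells (log2 fold change -0.19, adjusted p = 0.613). Hspa8 had 2696 and 3134 CPM in miR-21-/- cells, against 2874 and 3362 CPM in miR-21 control cells, with overlapping groups (log2 fold change -0.02, adjusted p = 0.967).

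Hsph1 had 84.1 and 82.3 CPM in miR-21-/- cells, against 97.7 and 100.5 CPM in miR-21 control cells (log2 fold change -0.18, SE 0.127, adjusted p = 0.427). Dnajb1 had 68.4 and 85.1 CPM in miR-21-/- cells, against 74.6 and 87.8 CPM in miR-21 control cells, and Hspa5 had 589.7 and 536.7 CPM in miR-21-/- cells, against 675.8 and 515.3 CPM in miR-21 control cells. The groups of Dnajb1 and Hspa5 overlapped. Hspe1 had 167.4 and 186.0 CPM in miR-21-/- cells, against 163.3 and 147.4 CPM in miR-21 control cells (log2 fold change 0.26, SE 0.161, adjusted p = 0.379). Hspd1 had 231.8 and 190.7 CPM in miR-21-/- cells, against 311.6 and 246.9 CPM in miR-21 control cells (log2 fold change -0.34, SE 0.154, adjusted p = 0.275). The chaperonin genes thus stood on opposite sides of 0, neither past the threshold.

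Of 112 other chaperone genes tested in miR-21-/- cells, edgeR called 0, with a median log2 fold change of 0.00, and 24 had an unadjusted p under 0.05. Over all genes, 2821 of 13428 had such a p, a similar share. DESeq2 called 3 higher and 2 lower, against 2.68% of all genes higher and 3.83% lower. Without miR-21-/- replicate 1, edgeR called more of these genes and more of all genes, so such calls are not particular to chaperones. The gene of smallest p was Ubb, at 223 and 234 CPM in miR-21-/- cells, against 78.9 and 73.5 CPM in miR-21 control cells (log2 fold change 1.66, SE 0.148, adjusted p = 0.0938). Ubb was called higher by DESeq2 and without miR-21-/- replicate 1, miR-21-/- replicate 2 or miR-21 control replicate 1. Over the 4 libraries left out its log2 fold change was 1.55 to 1.79, with an adjusted p of 0.00856 to 0.142. In the ER list (median -0.17) it was Sdf2l1, at 27.0 and 22.9 CPM in miR-21-/- cells, against 56.3 and 45.4 CPM in miR-21 control cells (log2 fold change -0.96, adjusted p = 0.112). In the heat shock factor list it was Hsf2 (0.70, adjusted p = 0.143), and among HSP70 partners Bag2 (-0.89, adjusted p = 0.125). In the remaining lists it was Dnajb12 (-0.36), Cdc37l1 (0.41), Hspb6 (0.89), Cct6a (-0.36), Pfdn5 (0.48) and Hscb (0.68), with adjusted p-values between 0.147 and 0.303. Over the 4 libraries left out, the log2 fold change was -1.06 to -0.83 for Sdf2l1, 0.49 to 0.91 for Hsf2 and -0.89 to -0.85 for Bag2. It was 0.32 to 0.65 for Pfdn5 and 0.51 to 0.85 for Hscb.

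Ratios within a library do not depend on how libraries are scaled. Hspa1a and Hspa1b together had 4.72 and 5.46 counts per 1000 Hspa8 counts in CNS, against 100.5 and 100.3 in ileum. They had 18.4 and 18.0 with Ad-c-Rel, against 5.11 and 4.48 with Ad-control, and 2.39 and 5.09 in miR-21-/- cells, against 1.42 and 1.71 in miR-21 control cells. In each pair of groups the libraries did not overlap. Hsp90aa1 had 430.6 and 415.5 counts per 1000 Hsp90ab1 counts in CNS, against 513.6 and 613.3 in ileum. It had 248.8 and 235.8 with Ad-c-Rel, against 221.3 and 189.9 with Ad-control, and 161.4 and 133.4 in miR-21-/- cells, against 211.6 and 202.3 in miR-21 control cells. Hspa5 had 616.1 and 666.4 counts per 1000 Hspa8 counts in CNS, against 1597 and 1751 in ileum, and 443.8 and 453.9 with Ad-c-Rel, against 318.9 and 337.1 with Ad-control. In the miR-21 pair the Hspa5 ratio overlapped, at 218.7 and 171.2 in miR-21-/- cells and 235.2 and 153.3 in miR-21 control cells. Hspe1 had 722.2 and 975.0 counts per 1000 Hspd1 counts in miR-21-/- cells, against 524.1 and 596.9 in miR-21 control cells. It had 493.8 and 452.4 in CNS, against 507.9 and 547.7 in ileum, and 224.2 and 189.3 with Ad-c-Rel, against 185.9 and 160.1 with Ad-control. These are ratios of counts and not of molecules, since the genes differ in length.

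**Figure D4:**
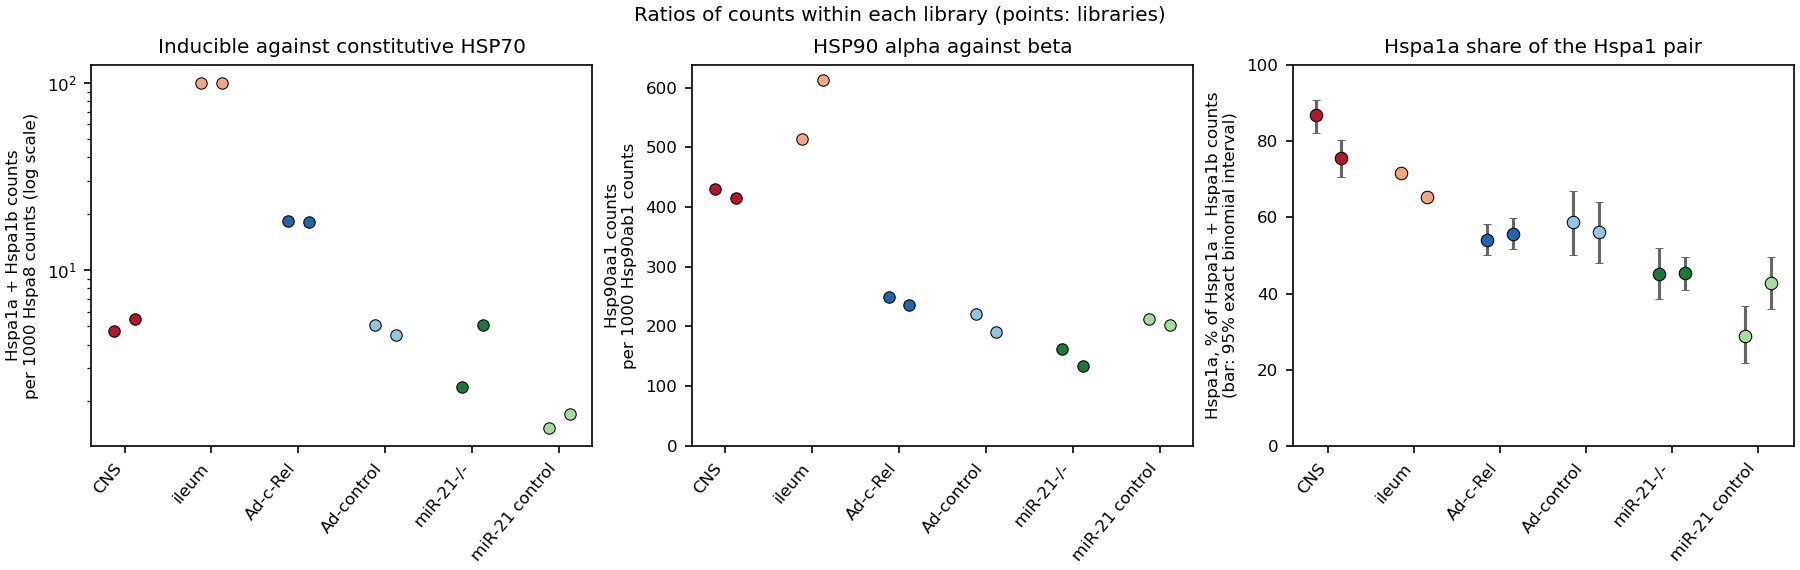
Ratios of counts within each of the 12 libraries. The panels show Hspa1a plus Hspa1b per 1000 Hspa8 counts on a log axis, Hsp90aa1 per 1000 Hsp90ab1 counts, and Hspa1a in percent of the counts of the Hspa1 pair with 95% exact binomial intervals. Points are libraries. The first ratio is near 100 in both ileum libraries and between 1.42 and 18.4 elsewhere.

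Hspa1a and Hspa1b are intronless copies of nearly equal length, so their counts can be set beside each other. Hspa1a made up 87.0% (95% exact binomial interval 82.3 to 90.8) and 75.8% (70.8 to 80.3) of the pair's counts in CNS, against 71.7% (70.5 to 72.8) and 65.3% (64.0 to 66.5) in ileum. It made up 54.2% and 55.8% with Ad-c-Rel, against 58.7% and 56.1% with Ad-control, with overlapping intervals. In miR-21-/- cells it made up 45.1% and 45.3%, against 28.9% (21.7 to 36.8) and 42.7% (35.9 to 49.6) in miR-21 control cells. The intervals cover counting error only. Reads that match both copies may be dropped or split, and reads of several alignments, which the tables list on a line apart, came to 0 in the miR-21 tables and to 2.25% to 3.52% of the total elsewhere. The split between the copies is therefore uncertain, and their sum was fitted as 1 row. It gave a log2 fold change of -4.63 (SE 0.202, adjusted p = 0.000613) in CNS against ileum, 2.12 (SE 0.117, adjusted p = 4.59e-07) for Ad-c-Rel against Ad-control, and 1.29 (SE 0.514, adjusted p = 0.233) for miR-21-/- against miR-21 control. Counts of Hspa8, Hsp90ab1 and Hspe1, which have many processed pseudogenes, and of Hspd1 and Hspe1, which overlap, carry the same kind of uncertainty.

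Genes with the most similar pattern were ranked by Pearson's r over the 12 libraries, on log2(CPM + 1) with the mean of each comparison's 4 libraries taken off. The ranking covered 9854 genes averaging at least 5 CPM. Predicted, clone, microRNA, immunoglobulin and T cell receptor names were left out. For Hspa1a plus Hspa1b they were Tnip1 (r = 0.973), Rab11fip1 (0.969), Ccl20 (0.956), Vgll4 (0.953) and Mier1 (0.950). For Hspa5 they were Calr (0.984), Nfkb2 (0.983), Il21 (0.981), Ccl20 (0.979) and Cd83 (0.974). Ccl20 had 1 and 0 counts in miR-21-/- libraries and 2 and 0 in miR-21 control libraries. Its r values therefore rest on the CNS, ileum, Ad-c-Rel and Ad-control libraries. Among the members, Hspa5 had r = 0.918 with the HSP70 pair, Dnajb1 0.782, Hsph1 0.777, Hsp90ab1 0.760, Hsp90aa1 0.653, Hspe1 0.578, Hspa8 0.554 and Hspd1 -0.155. In that order they ranked 66, 708, 734, 829, 1284, 1637, 1741 and 4283 among the 9854 genes. Many genes outside the set were thus closer to the pair than most members. The 12 points share libraries and depth, and the CNS and ileum libraries, which lie farthest from 0, weigh most.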

How the data were processed

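RNA-seq of 12 libraries was used, and the 8 ATAC-seq samples were not analysed here. Each table holds raw counts per gene made by the authors and deposited per library. The submitters' processing notes name, with no role or order, the mm10 build, DESeq2, HTSeq 0.11.0, TopHat2 2.1.0 and Trim Galore 0.4.4. The sources used here give neither the strand setting nor the annotation. Lines that name no gene held 14.7% to 26.1% of a table and stayed out of library sizes and tests.

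The 4 libraries of a comparison, grouped by the labels, were fitted alone in edgeR 4.0.16 (R 4.3.3) with TMM scaling after filterByExpr, a two-sided quasi-likelihood F test and Benjamini-Hochberg adjustment over all genes tested (threshold 0.05). A gene past the threshold is called higher or lower. The standard error (SE) was taken as the size of the log2 fold change divided by the root of F. CPM are counts scaled to a library total of 1000000 gene counts. A chi-square of 4.60 to 67.8 per degree of freedom set replicates apart beyond counting noise, so none were merged. The alternatives were DESeq2 1.42.0, its size factors inside edgeR, no filter, the replicate number as a block, Hspa1a and Hspa1b summed, each library left out and, for the sorted cells, scaling to T cell identity genes. On simulated counts with changes of 1 and 2 on the log2 scale, the fit recovered 10.1% and 36% of changed genes for CNS against ileum (11339 genes), 99% and 100% for Ad-c-Rel (11581 genes) and 69% and 100% for miR-21-/- (13267 genes). At each size at most 100 genes were changed, while 2941 genes of the real CNS and ileum fit had an unadjusted p under 0.05. The adjustment is stricter when fewer genes change, so these shares do not measure what the real CNS and ileum fit could detect. The simulated libraries were drawn independently, with no shift shared by replicate number. In the real miR-21 libraries, those of the same number departed from their group means with a correlation of 0.715, and the main fit called 0 genes. The simulated shares are therefore no measure of what was detectable there. Groups of 2 libraries and the depth of each limit the precision.

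The members and all gene lists were chosen with earlier results of these data known. Named beside the members are up to 3 called genes per list and comparison by smallest p, or the 1 gene of smallest p where none was called, and the 5 genes most similar in pattern. Some genes that this rule names or that the marker lists hold are not reported here.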

Additional observations from a re-analysis of the deposited data

How the results depend on the processing

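Of 274 log2 fold changes of members under the alternatives, 240 kept their direction and their side of the threshold. For CNS against ileum, where 482 genes were called higher and 681 lower, DESeq2 called 1738 and 1813, no filter 1113 and 1300, and the scaling to T cell identity genes 885 and 408. Leaving out a library gave 319 (without CNS replicate 2) to 1285 (without ileum replicate 1) higher, and DESeq2 called 8 members lower in place of 5. Scaled to T cell identity genes, Hspa8 (0.0838), Hspe1 (0.0785) and Hspd1 (0.24) turned above 0, and leaving out a library gave -0.425 to 0.0073 for Hspd1 (the last without CNS replicate 1). For Ad-c-Rel, where 956 genes were called higher and 717 lower, DESeq2 called 450 lower and leaving out a library gave 537 to 784 higher and 389 to 597 lower, and Hsp90ab1 was -0.0165 without Ad-control replicate 1. For miR-21-/-, where edgeR called 0 and 0, DESeq2 called 339 higher and 485 lower, no filter 9 and 31, and leaving out a library 1 to 666 and 1 to 661. DESeq2 called 1 member lower there, and leaving out a library 0 to 2 higher and 0 to 1 lower. Fold changes near 0 turned there, and leaving out a library gave from -0.2138 up for Hspa8, from -0.2515 up for Dnajb1 and from -0.1492 up for Hspa5. Those above 0 were Hspa8 (0.174 without miR-21-/- replicate 1, 0.1453 without miR-21 control replicate 2), Dnajb1 (0.0119 by DESeq2, 0.0118 with its size factors, 0.2332 without miR-21-/- replicate 1, 0.1677 without miR-21 control replicate 2) and Hspa5 (0.0067 by DESeq2 and with its size factors, 0.0226 without miR-21-/- replicate 1, 0.1647 without miR-21 control replicate 1). The cause was not tested. A group left with 1 library is assumed to vary like the other group.

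The labels do not say that a replicate number pairs samples. Libraries of the same number departed from the mean of their group with a correlation of 0.0467 for CNS and ileum, 0.199 for Ad-c-Rel and Ad-control and 0.715 for miR-21-/- and its control, over 9647, 9306 and 9867 genes. With the replicate block, 534 genes were called higher and 775 lower for CNS against ileum, 1488 and 1314 for Ad-c-Rel, and 2287 and 2520 for miR-21-/-. Of the members, the block left 5 lower in CNS, called 9 higher with Ad-c-Rel, and called 2 higher (Hspa1a and Hspa1b) and 2 lower (Hsp90aa1 and Hspd1) in miR-21-/- cells. Of the other chaperone genes, it called 30 higher and 5 lower with Ad-c-Rel, among them 5 HSP90 co-chaperones and 2 TRiC subunits higher, and 20 higher and 24 lower in miR-21-/- cells.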
